A study of Oryza sativa with 12 samples.

Results

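Whole rice seedlings that carried a PKG mutation were compared with wild type seedlings while both were exposed to Br-cGMP, a bromo-substituted analogue of the second messenger cyclic GMP. The 2 groups were pkg Br-cGMP, labelled PKG-/- and given 10 µM Br-cGMP for 5 h, and wild type Br-cGMP, given the same treatment, with 3 RNA-seq libraries each. All seedlings were of cultivar ZH11 and 14 days old, grown on 1/2 MS medium in a chamber. The same genotypes without Br-cGMP, pkg control and wild type control, again with 3 libraries each, entered the same fit, where they help set the spread, and gave the untreated genotype difference. The labels give neither the mutated position in PKG nor the number of mutant lines, so pkg below means the libraries labelled so. Features were kept when they reached 1 FPKM (fragments per kilobase scaled to sequencing depth, the unit read from the structure of the values) in at least 3 of the 6 Br-cGMP libraries. That left 21685 of the 112071 features listed, 12619 of them among the 37830 reference genes, whose identifiers begin with OS.

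PKG is a protein kinase switched on by cyclic GMP, which plants, like animals, make and degrade as a messenger. The series title places the rice kinase in gibberellin signalling, through the nuclear location of GAMYB, a transcription factor that acts after gibberellin has caused loss of the DELLA repressor SLR1. The comparison therefore asks how the 2 genotypes differ once the kinase's activator has been supplied.

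Every difference below is pkg minus wild type on the log2(FPKM + 1) scale with its standard error, from limma fitted to all 12 libraries, with p-values adjusted over all 21685 features by the Benjamini-Hochberg method. A feature rose or fell in pkg when its adjusted p was under 0.05. On this scale the folds of low features are understated. Reads assigned to features numbered 7736122 to 8791047 in the pkg Br-cGMP libraries and 7650949 to 8155941 in the wild type Br-cGMP libraries. The libraries were not alike in tissue markers. The summed level of 35 root list genes was 2346, 6960 and 638 FPKM in pkg libraries 1, 2 and 3, against 2991, 8370 and 5449 FPKM in wild type libraries 1, 2 and 3. A single member, MT4C, weighs heavily in these sums. It was at 1751, 4191 and 7.83 FPKM in pkg and at 1540, 6215 and 4139 FPKM in wild type. In the pkg library numbered 3, the silicon efflux transporter gene LSI2 of roots was at 0.181 FPKM, against 41.7 and 452 FPKM in the other pkg libraries and 187 to 345 FPKM in wild type. Not every root list gene was low there. Of 19 with a median above 1 FPKM, 7 were under 10% of that median. PHT1-1, a phosphate transporter gene of the list, was at 480 FPKM there. It was at 232 and 472 FPKM in the other pkg libraries and 204 to 327 FPKM in wild type. The 20 leaf list genes summed to 6125, 6985 and 8847 FPKM in pkg and to 9531, 5736 and 5616 FPKM in wild type, so their ranges overlapped. Among the control libraries, the root list sums were 1822, 3650.3 and 264 FPKM in pkg control and 4006, 3115 and 250.3 FPKM in wild type control, so the library numbered 3 was low in both. Below, low in root genes refers to this sum, not to each gene of the list. In whole seedlings, fewer cells of a type and less RNA per cell cannot be told apart.

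The genes that the series title turns on were read first. The identifier taken for PKG, OS02G0281000 (chromosome 2, 10419062 to 10428014, on a build that no source used here names), has no symbol in the files. It stood at 9.03, 3.68 and 8.61 FPKM in pkg and at 6.56, 4.65 and 5.95 FPKM in wild type. The groups overlapped, and the difference was 0.20 ± 0.29 (adjusted p = 0.854). The level cannot test the labels, because the altered position is unknown. An added feature over it on the same strand, from 10422504 to 10428014, had 0 in all 6 Br-cGMP libraries. How reads in the shared bases were counted is not known, so the level of OS02G0281000 may not cover the whole locus. SLR1, the DELLA repressor, was at 325, 243 and 298 FPKM in pkg and at 309, 283 and 354 FPKM in wild type (difference -0.13 ± 0.26, adjusted p = 0.899). GID1, the gibberellin receptor, averaged 198 ± 51.6 FPKM in pkg and 191 ± 13.8 FPKM in wild type (SD, n = 3 each, limma difference 0.02 ± 0.21, adjusted p = 0.986). GAMYB, at 0.717, 0.805 and 1.98 FPKM in pkg and 0.498, 0.937 and 0.666 FPKM in wild type, was too low to be tested. Neither SLR1 nor GID1 separated the genotypes in these libraries. Transcript levels measure neither the amount of SLR1 protein nor the location of GAMYB protein.

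Under Br-cGMP, 88 features differed between the genotypes, 0.406% of those tested. Of these, 52 rose in pkg (0.24%) and 36 fell (0.166%). Reference genes made up 21 of the 88, with 13 higher and 8 lower in pkg, which is 0.166% of the reference genes tested. Only CHT11 and TIP4-3 among the 21 have a symbol in the files, and no identifier of the 21 was found in the reference gene table, so the rest are given by identifier alone with no role. Without adjustment, 2148 features (9.91%) had p under 0.05. The adjusted p was 0.0488 for the last feature past the threshold and 0.0506 for the first one short of it.

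The 8 reference genes that fell in pkg were led by OS03G0299700 (chromosome 3, 10518913 to 10520192). It had no read in any pkg Br-cGMP library and stood at 104, 115 and 111 FPKM in wild type, from 1000 to 1172 reads a library. Its difference was -6.79 ± 0.19 (adjusted p = 1.04e-07). With a floor of 3 reads in each pkg library, it was at least 396-fold lower in pkg. OS03G0344400 (chromosome 3, 12830649 to 12831782) was likewise without a read in pkg and at 19.8, 28.7 and 34.3 FPKM in wild type, at least 88.0-fold lower in pkg (difference -4.80 ± 0.25, adjusted p = 8.24e-06). OS04G0510000 (chromosome 4, 25518258 to 25518789) had no read in pkg and 22.9, 29.8 and 45.8 FPKM in wild type, at least 49.1-fold lower in pkg (difference -5.02 ± 0.28, adjusted p = 1.33e-05). These 3 genes were thus expressed at moderate or high levels in each wild type library and had no read in pkg.

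The other reference genes that fell were weakly expressed in wild type too. OS02G0828533 was at 0, 0.235 and 0 FPKM in pkg and at 3.66, 8.79 and 6.44 FPKM in wild type (difference -2.70 ± 0.29, adjusted p = 0.00167). OS08G0267300 was at 1.03, 0.363 and 0 FPKM in pkg and at 6.36, 7.90 and 5.81 FPKM in wild type (difference -2.45 ± 0.39, adjusted p = 0.0222). OS07G0457200, OS07G0580700 and OS11G0466300 had group means of 0.10 to 0.688 FPKM in pkg and 3.67 to 5.54 FPKM in wild type. In none of these 5 did a pkg library reach the lowest wild type library.

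Among the 13 reference genes that rose, OS01G0713200 (chromosome 1, 29620958 to 29622314) differed most. It was at 70.1, 405 and 464 FPKM in pkg and at 0, 0.107 and 0 FPKM in wild type, where the 3 libraries held 1 read between them (difference 7.84 ± 0.67, adjusted p = 0.000394). Its pkg libraries were spread widely, pkg Br-cGMP 1 being the lowest. OS06G0685400 (chromosome 6, 28566194 to 28566973) was at 66.1, 39.7 and 80.8 FPKM in pkg with no read in wild type, at least 108-fold higher in pkg (difference 5.92 ± 0.68, adjusted p = 0.00303). OS03G0582900 (chromosome 3, 21457124 to 21458020) was at 14.7, 6.89 and 12.6 FPKM in pkg and at 0, 0.560 and 0.276 FPKM in wild type (difference 3.24 ± 0.35, adjusted p = 0.00199). Both had little or no signal in wild type and a clear one in each pkg library.

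Another 3 of the genes that rose were well expressed in both genotypes. OS10G0569400 was at 724, 1246 and 788 FPKM in pkg and at 149, 399 and 184 FPKM in wild type (difference 2.00 ± 0.35, adjusted p = 0.0457). OS07G0605400 was at 467, 205 and 378 FPKM in pkg and at 97.8, 77.4 and 83.7 FPKM in wild type (difference 1.93 ± 0.28, adjusted p = 0.0132). OS11G0137200 was at 81.6, 85.1 and 56.7 FPKM in pkg and at 31.5, 23.3 and 19.4 FPKM in wild type (difference 1.56 ± 0.25, adjusted p = 0.0222). The groups did not overlap in any of these 3 genes, but their calls depended on the setting. Of 24 alternatives, OS10G0569400 lost its call in 16, OS11G0137200 in 7 and OS07G0605400 in 6. Leaving out single Br-cGMP libraries, the adjusted p of OS10G0569400 reached 0.127 and 0.128 without pkg 2 and 3, and 0.167 and 0.222 without wild type 1 and 3. That of OS11G0137200 reached 0.089 without pkg 2, and 0.112 and 0.113 without wild type 2 and 3. That of OS07G0605400 was 0.0754 without pkg 3, and 0.0788 and 0.0756 without wild type 2 and 3.

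CHT11 (OS03G0132900), a chitinase gene of the family that attacks fungal cell walls, was at 98.7, 71.2 and 203 FPKM in pkg and at 19.3, 32.1 and 15.8 FPKM in wild type (difference 2.34 ± 0.40, adjusted p = 0.0413). TIP4-3 (OS01G0232000), an aquaporin gene of the vacuolar membrane family, was at 21.4, 12.4 and 12.1 FPKM in pkg and at 1.94, 1.16 and 2.29 FPKM in wild type (difference 2.52 ± 0.43, adjusted p = 0.0385). TIP4-3 overlaps the reference gene OS01G0231950 on the other strand, and no source used here says whether reads were counted by strand. Of the 21 reference genes, 5 overlap another reference gene. OS03G0582900, OS10G0569400, OS11G0137200 and OS11G0466300 meet an added feature on the other strand or without a strand. OS01G0153150 meets one on its own strand. The pkg values of CHT11 and TIP4-3 lay above every wild type value. Calls near the threshold depended on single libraries: the adjusted p of CHT11 was 0.102 without pkg Br-cGMP 3, where its value was highest, and 0.169, 0.0522 and 0.203 without wild type Br-cGMP 1, 2 and 3. That of TIP4-3 was 0.102 without pkg Br-cGMP 3 and reached 0.177 with 1 library left out. Of 24 alternatives, TIP4-3 lost its call in 16 and CHT11 in 15. The remaining 5 reference genes that rose had pkg means of 2.37 to 24.3 FPKM and wild type means of 0 to 0.784 FPKM.

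**Figure D1:**
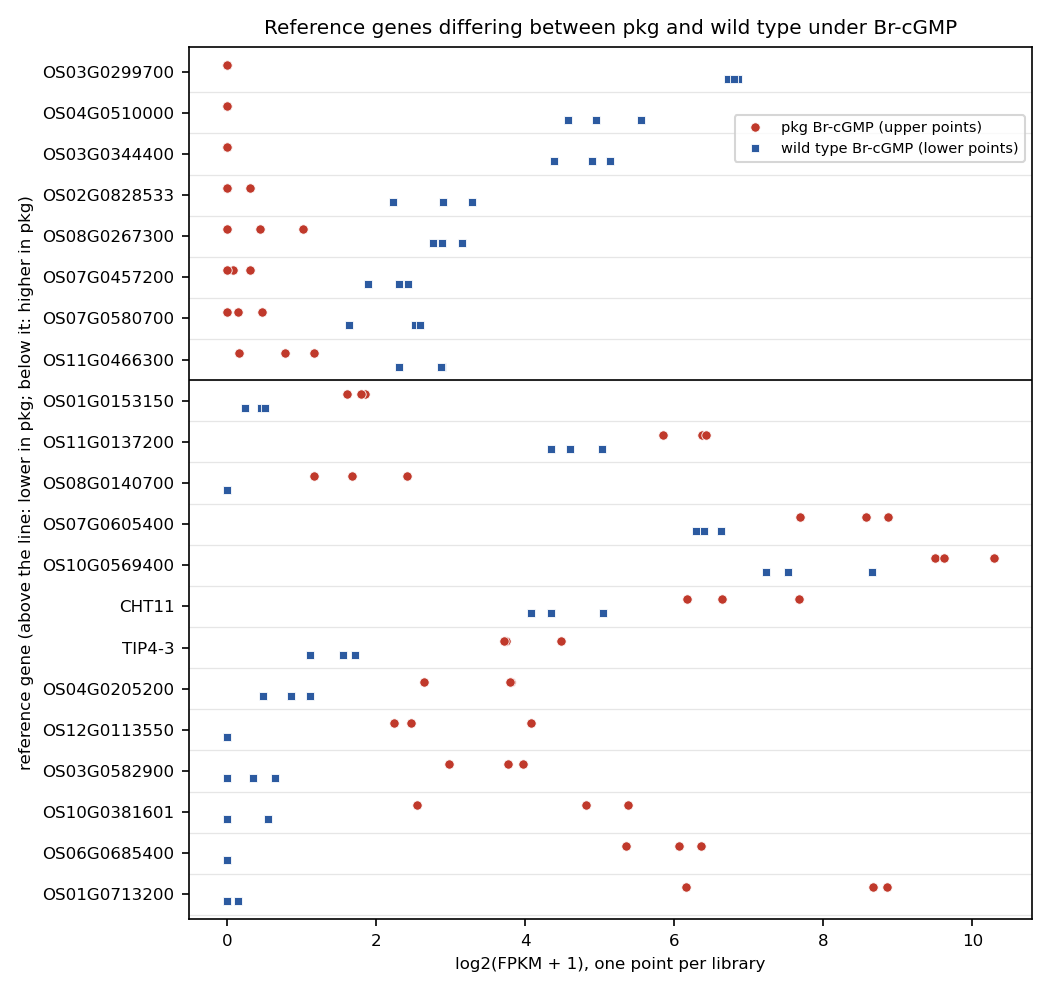
Level of the 21 reference genes that differed under Br-cGMP, as log2(FPKM + 1) on the horizontal axis with 1 point per library; red circles are the 3 pkg libraries and blue squares the 3 wild type libraries, some of which coincide at 0. The 8 genes above the line fell and the 13 below it rose in pkg, from OS03G0299700 with 0 in all pkg libraries to OS01G0713200 with 70.1 to 464 FPKM in pkg.

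For 49 of the 88 features, no Br-cGMP library of the other genotype held a read, and for 58 none held more than 3 reads. Over all features tested, 118 of 21685 (0.544%) had no read in the Br-cGMP libraries of one genotype. Such a feature passes the filter only through the genotype where it is high, and zeros have no spread, so nothing is read from its share among the 88. Leaving out the short EPlOSAG features, 20 features without a read in wild type Br-cGMP were at least 1.74-fold to 517-fold higher in pkg, with a median bound of 11.9-fold. The 19 without a read in pkg Br-cGMP were at least 3.48-fold to 396-fold lower in pkg, with a median bound of 25.0-fold. A 0 for a reference gene need not mean that its locus is not transcribed. Of 15694 reference genes that share their place and strand with an added feature (a transcribed region listed beside the reference genes under a running number), 9761 were listed at 0 in all 12 libraries (62.2%), against 22.6% of the 18472 that meet no added feature. The chlorophyll-binding protein genes CAB1R and CAB2R, which leaves are known to express strongly, are listed at 0 throughout and lie under such features. The added features over both genes were themselves at 0 in every Br-cGMP library. Where any reads of these loci were counted is therefore not known. None of the 3 reference genes without a read in pkg under Br-cGMP, nor OS06G0685400, meets an added feature.

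Added features made up 57 of the 88 (34 higher and 23 lower in pkg), 0.766% of the 7441 tested. The added feature that rose with the smallest p lay on chromosome 7 from 587369 to 594575, at 30.6, 29.8 and 37.9 FPKM in pkg with no read in wild type (difference 5.07 ± 0.18, adjusted p = 4.57e-07). It was at least 517-fold higher in pkg. Next was one on chromosome 4 from 34098829 to 34100178, at 19.7, 14.3 and 14.4 FPKM in pkg and 0.156, 0 and 0 FPKM in wild type (difference 4.02 ± 0.20, adjusted p = 5.22e-06), followed by one on chromosome 10 from 4856224 to 4858364, with 10.6 to 21.1 FPKM in pkg and no read in wild type. The added feature that fell with the smallest p lay on chromosome 1 from 42350945 to 42356184, at 0.328, 0.0723 and 0.278 FPKM in pkg and 31.3, 32.7 and 28.9 FPKM in wild type (difference -4.71 ± 0.19, adjusted p = 1.03e-06). Next were one on chromosome 8 from 27386827 to 27387267, with no read in pkg and 16.2 to 25.2 FPKM in wild type, and one on chromosome 4 from 27530005 to 27537485, with no read in pkg and 13.7 to 23.3 FPKM in wild type.

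Of the 57 added features, 17 overlapped a reference gene, 24 genes in all. Only 4 of the 24 could be tested, and none of these was past the threshold. The one with a symbol is HXK1 (OS07G0446800, chromosome 7, 15293180 to 15294805), a hexokinase gene, whose enzyme phosphorylates glucose. HXK1 was singled out after its values were seen. It lies on the same strand inside an added feature from 15291932 to 15294805, which had no read in pkg and 17.3, 20.7 and 18.7 FPKM in wild type (difference -4.31 ± 0.28, adjusted p = 3.68e-05), at least 145-fold lower in pkg. The reads counted for HXK1 itself were 0 in each of the 6 pkg libraries, against 13, 22 and 8 in treated wild type and 23, 5 and 27 in wild type control. HXK1 reached 1 FPKM in 2 of the 6 Br-cGMP libraries and so was not tested. No pkg library held a read of HXK1 and each of the 6 wild type libraries did.

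Short EPlOSAG features, with a median length of 70 bases among those tested, made up the last 10 of the 88 (5 higher and 5 lower in pkg). All 10 had no read in the Br-cGMP libraries of the other genotype, and 6 had at most 10 reads in any Br-cGMP library, so their values rest on few reads. EPlOSAG00000022741, 26 bases long, was at 53.3, 35.2 and 38.7 FPKM in pkg, from 12, 8 and 8 reads, with no read in wild type (difference 5.42 ± 0.35, adjusted p = 3.68e-05). It lies 4969 bases from EPlOSAG00000023331, which also rose in pkg. No ENSRNA feature of the 11 tested was past the threshold.

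The features lay on all 12 chromosomes, with 1 to 12 on each, or 0.085% (chromosome 9) to 0.645% (chromosome 10) of those tested there. Chromosome 2, which holds the identifier taken for PKG, had 10 (0.396%). Of these, 9 were lower and 1 was higher in pkg, against 36 lower and 52 higher in all. The cause of this was not tested. Most had no other such feature near them: 12 of the 88, in 6 pairs, were within 50000 bases of another. The pair members moved the same way in 4 pairs and opposite ways in 2. OS12G0113550 and an added feature 116 bases away both rose. OS10G0381601 rose and an added feature 2199 bases away fell.

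The genotype difference was then read in the untreated libraries. These are other samples, but both differences come from 1 fit with a shared spread for each feature, so the calls are not independent. There 84 features differed (0.387%), 54 higher (0.249%) and 30 lower (0.138%) in pkg, and 4.91% had an unadjusted p under 0.05. Without the 3 libraries low in root genes, the libraries numbered 3 of pkg Br-cGMP and of both controls, 29 features differed untreated. Of the 88 features that differed under Br-cGMP, 82 had the same sign untreated and 66 were past the threshold untreated in the same direction. For 79 the untreated groups did not overlap in that direction, where 5.34% of all features tested were higher and 5.42% lower without overlap. All 21 reference genes had the same sign untreated, 20 did not overlap, and 14 were past the threshold. OS03G0299700 was at 0, 0 and 0.362 FPKM in pkg control and at 100.4, 81.5 and 111 FPKM in wild type control (difference -6.46 ± 0.19). OS01G0713200 was at 521, 592 and 170.0 FPKM in pkg control with no read in wild type control. OS06G0685400, at 33.9, 9.20 and 113 FPKM in pkg control with no read in wild type control, repeated the pattern. CHT11 was at 99.5 to 153 FPKM in pkg control and at 16.7 to 30.9 FPKM in wild type control (difference 2.47 ± 0.40, adjusted p = 0.0295). The untreated difference of TIP4-3 was 1.90 ± 0.43 (adjusted p = 0.198).

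**Figure D2:**
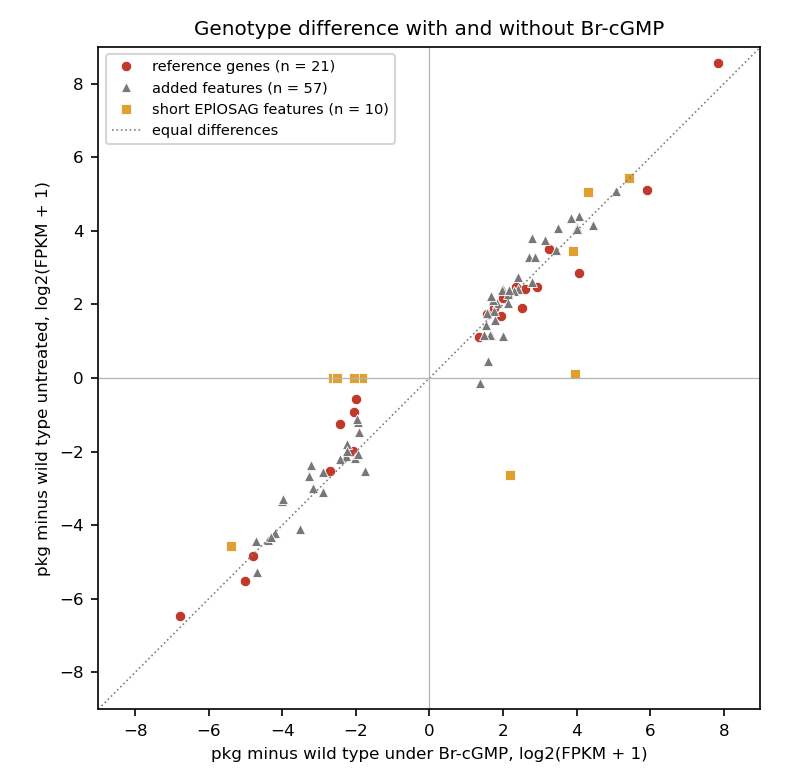
Genotype difference, pkg minus wild type on the log2(FPKM + 1) scale, under Br-cGMP (horizontal) and untreated (vertical), for the 88 features that differed under Br-cGMP. Points near the dotted line have equal differences; 82 of the 88 have the same sign on both axes, and the short EPlOSAG features at or near 0 on the vertical axis are the main exceptions.

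Whether the genotype difference itself depended on Br-cGMP was tested as an interaction. It was past the threshold for 1 feature (0.00461%), the 53-base EPlOSAG00000003869, with 418 features (1.93%) at an unadjusted p under 0.05. This feature was at 2.18, 4.32 and 4.75 FPKM in pkg Br-cGMP, from 1, 2 and 2 reads, with no read in wild type Br-cGMP. Untreated it was the other way round, with 0 in pkg control and 4.03, 4.34 and 7.70 FPKM in wild type control. Of the 21 reference genes, OS11G0466300 alone had an unadjusted interaction p under 0.05 (0.0159). It was at 1.24, 0.714 and 0.112 FPKM in pkg Br-cGMP and 3.93, 6.39 and 6.29 FPKM in wild type Br-cGMP, while untreated the groups overlapped, with a difference of -0.58 (adjusted p = 0.962). No reference gene was past the interaction threshold.

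Genes with symbols were then read in 24 lists by function, which held 795 listed and 412 tested genes. In these lists 2 genes were past the threshold, CHT11 and TIP4-3, both higher in pkg. All other values below are given without a call. Over all features tested the median difference was -0.02, with 47.6% above and 52.4% below wild type, and 3.7% higher and 6.21% lower at an unadjusted p under 0.05. The groups did not overlap for 6.88% of features higher and 7.0% lower in pkg, against which the list counts can be read. Members named below were mostly picked by smallest p, so a lack of overlap in them follows largely from that choice.

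Genes of wall synthesis were mostly below wild type. In the list of cellulose synthases and related synthases, 11 of 15 tested members were below wild type, with a median of -1.02, and 6 were below it without overlap. Untreated, 13 of the 15 were below wild type, with a median of -0.56. CESA4, CESA7 and CESA9 encode the synthase subunits of rice secondary walls. CESA4 was at 26.0, 6.78 and 5.42 FPKM in pkg and at 40.3, 34.2 and 31.7 FPKM in wild type (difference -1.71 ± 0.49, adjusted p = 0.303). CESA7 was at 17.8, 5.55 and 3.01 FPKM in pkg and at 28.3, 31.4 and 23.7 FPKM in wild type (difference -1.86 ± 0.54, adjusted p = 0.317). CESA9 was at 34.8, 8.13 and 7.94 FPKM in pkg and at 55.4, 47.1 and 41.2 FPKM in wild type (difference -1.76 ± 0.52, adjusted p = 0.317). In all 3 genes each pkg library was below each wild type library, with pkg Br-cGMP 1 nearest to wild type. CESA8, a further synthase subunit gene, was at 151, 75.9 and 34.0 FPKM in pkg and at 221, 166 and 214 FPKM in wild type (adjusted p = 0.364). CSLF6, the synthase of mixed-linkage glucan in grasses, was at 66.9, 20.8 and 11.4 FPKM in pkg and at 83.3, 75.3 and 76.5 FPKM in wild type (adjusted p = 0.426). CSLE1 ran the other way, at 68.2, 118 and 142 FPKM in pkg and 64.0, 54.8 and 40.0 FPKM in wild type (adjusted p = 0.383).

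Genes of wall loosening and lignin lay on the same side. In the list of expansins and xyloglucan enzymes, 23 of 25 tested members were below wild type, with a median of -0.88, and 2 of them did not overlap. Untreated, 16 of the 25 were below it (median -0.20). XTH8, a xyloglucan endotransglucosylase of growing rice tissue, was at 445, 326 and 159 FPKM in pkg and at 1066, 738 and 901 FPKM in wild type (difference -1.64 ± 0.40, adjusted p = 0.207). EXPB4, a beta-expansin gene, was at 64.3, 49.2 and 15.4 FPKM in pkg and at 76.1, 163 and 123 FPKM in wild type (adjusted p = 0.425). In the phenylpropanoid, lignin and laccase list, 17 of 24 were below wild type, with a median of -0.40 (14 of 24 untreated, median -0.04). LAC4, a laccase gene of the family that polymerizes lignin, was at 29.0, 5.92 and 2.56 FPKM in pkg and at 55.1, 36.3 and 57.3 FPKM in wild type (difference -2.46 ± 0.72, adjusted p = 0.319). CAD8D, of the cinnamyl alcohol dehydrogenase family, was above wild type by 0.73 ± 0.26 (adjusted p = 0.399).

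**Figure D3:**
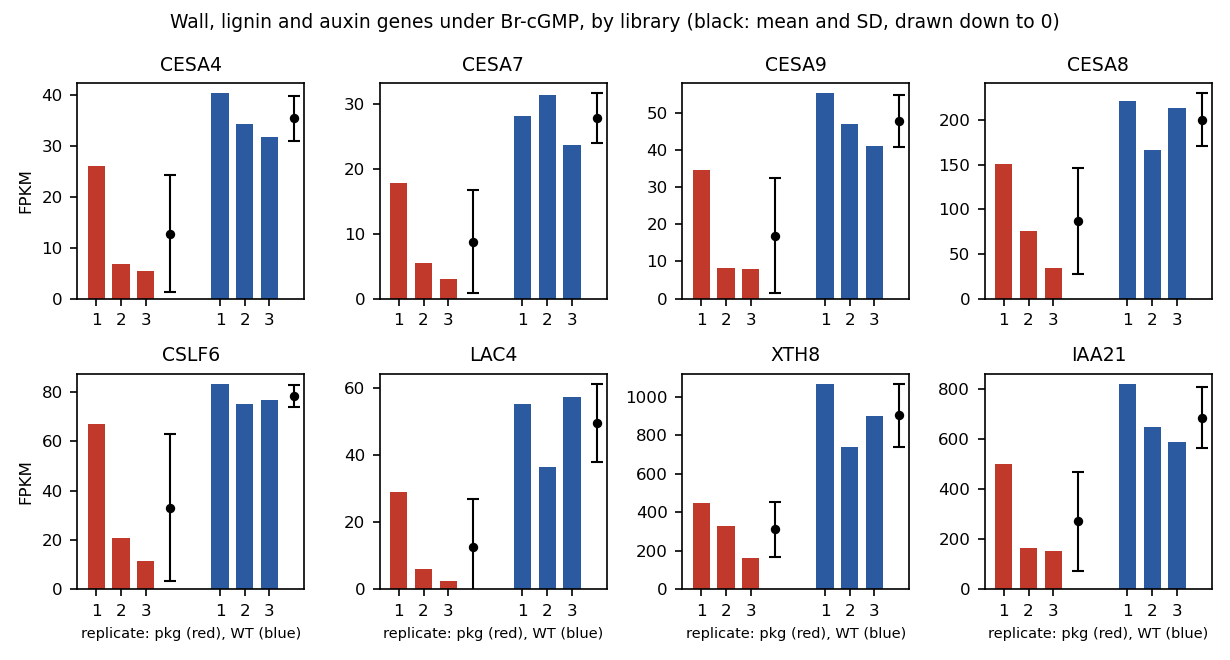
FPKM of 8 named genes in each Br-cGMP library, with red bars for pkg 1 to 3 on the left and blue bars for wild type 1 to 3 on the right; black points and lines are the group mean and SD. In all 8 panels the 3 pkg bars are lower than the 3 wild type bars, and pkg 1 is the highest of the pkg bars, as in CESA4 with 26.0 FPKM against 6.78 and 5.42 FPKM in pkg 2 and 3. The 8 genes were picked, so their shared direction is no result, and none was past the threshold with all libraries. CSLE1 and CAD8D, which ran the other way, are not drawn.

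These wall gene values moved with particular libraries. Without pkg Br-cGMP 3, the library low in root genes, the median of the cellulose synthase list was -0.33, that of the expansin list -0.46 and that of the phenylpropanoid list -0.02. Without pkg Br-cGMP 1, 256 features differed (73 higher and 183 lower in pkg), 140 of them reference genes, and 83 of the 88 were among them. In this fit 147 features were lower in pkg that were not past the threshold with all libraries. For all 147, the library left out stood above both other pkg libraries, and for 61 it reached the lowest wild type library. The 147 features were picked by leaving out this library, so its higher position in them follows largely from that choice. Their calls depend on its absence, and its distance from wild type over all features was not measured. Genes with symbols that were past the threshold in that fit and not with all libraries were CESA4, CESA7, CESA9, LAC4 and the following, all lower in pkg. IAA21, an Aux/IAA repressor of auxin response, was at 499.8, 163 and 151 FPKM in pkg and at 822, 649 and 588 FPKM in wild type (difference -2.10 ± 0.40 without pkg Br-cGMP 1, adjusted p = 0.0473). NIP1-1, an aquaporin of the NIP family, was at 81.9, 4.23 and 10.1 FPKM in pkg and at 63.9, 102 and 168 FPKM in wild type, so pkg Br-cGMP 1 lay within the wild type range. PMEI8, of the pectin methylesterase inhibitor family, was at 20.3, 0 and 0.157 FPKM in pkg and at 44.8, 45.8 and 19.6 FPKM in wild type. There too pkg Br-cGMP 1 lay within the wild type range. MPK10, a mitogen-activated protein kinase gene, GER3, of the germin-like family, and GLU2 completed the group. With 2 pkg libraries left, one of them low in root genes, the part of that library in these calls was not tested.

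**Figure D4:**
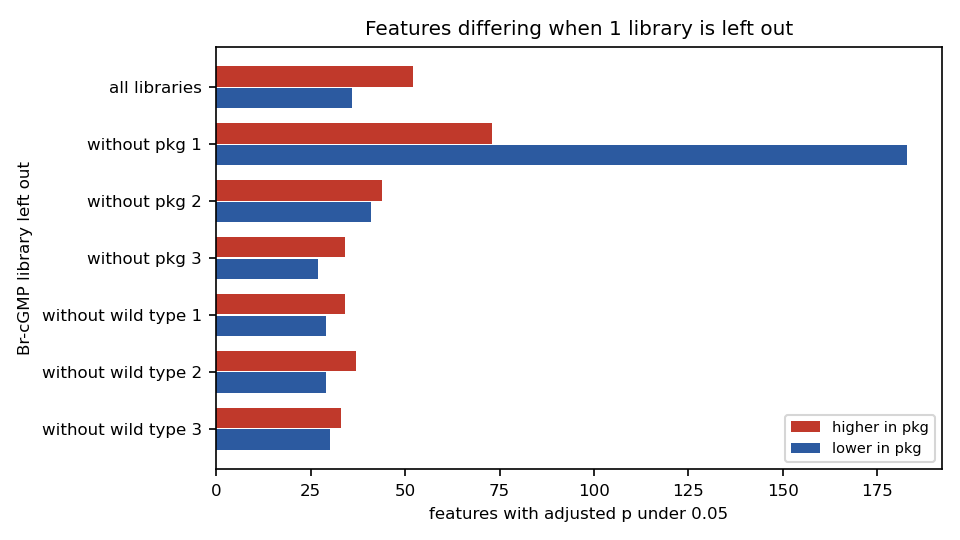
Number of features with adjusted p under 0.05 for pkg against wild type under Br-cGMP, with all libraries and with each Br-cGMP library left out in turn; red bars count features higher and blue bars features lower in pkg. With all libraries there are 52 higher and 36 lower, and without pkg 1 there are 73 higher and 183 lower.

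Water channel and auxin genes were mostly below wild type. Of 16 tested aquaporin genes 13 were below it, with a median of -0.56 (-0.26 without pkg Br-cGMP 3), while TIP4-3 rose. TIP2-2, of the vacuolar membrane family, was at 172, 81.0 and 119 FPKM in pkg and at 256, 240.4 and 277 FPKM in wild type (difference -1.11 ± 0.35, adjusted p = 0.351). PIP2-6, of the plasma membrane family, was at 84.9, 20.7 and 22.4 FPKM in pkg and at 87.9, 157 and 184 FPKM in wild type (adjusted p = 0.364). In the auxin list 17 of 21 members were below wild type, with a median of -0.54 (-0.34 without pkg Br-cGMP 3 and -0.32 without wild type Br-cGMP 3). SAUR39, a small auxin-induced RNA gene, was above it, at 57.1, 86.0 and 113 FPKM in pkg and 51.0, 37.4 and 30.6 FPKM in wild type (adjusted p = 0.413).

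Defence genes did not move as a block. In the chitinase and pathogenesis-related list 4 of 9 tested members were above wild type and 5 below, with a median of -0.05. CHT3 and CHT1, chitinase genes like CHT11, were both higher without overlap. CHT3 was at 240.1, 90.5 and 104 FPKM in pkg and at 31.9, 60.8 and 53.3 FPKM in wild type (difference 1.46 ± 0.40, adjusted p = 0.281). CHT1 was at 282, 165 and 235 FPKM in pkg and at 74.8, 89.8 and 116 FPKM in wild type (difference 1.26 ± 0.40, adjusted p = 0.357). RIXI, a xylanase inhibitor, was at 0.590, 0.0974 and 0 FPKM in pkg and at 2.39, 3.74 and 3.16 FPKM in wild type (difference -1.75 ± 0.41, adjusted p = 0.182). In the jasmonate list 14 of 21 were below wild type (median -0.26, but 0.00017 without pkg Br-cGMP 1 and 0.03 without wild type Br-cGMP 3), and in the diterpenoid phytoalexin list 6 of 8 (median -0.89, and 0.04 without pkg Br-cGMP 3). KSL4, a diterpene synthase of momilactone production, was at 3.35, 2.95 and 3.97 FPKM in pkg and at 14.1, 10.2 and 20.9 FPKM in wild type (difference -1.81 ± 0.81, adjusted p = 0.502). Of the NAC and WRKY factors 5 of 7 were above wild type (median 0.17).

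In the remaining hormone lists, 3 of 4 gibberellin genes were below wild type (median -0.24), 7 of 8 brassinosteroid genes (median -0.34, but 0.03 with 5 of 8 above wild type without pkg Br-cGMP 3), 8 of 14 abscisic acid and PP2C genes (median -0.03) and 5 of 16 cytokinin genes (median 0.22). CYP714D1, a gibberellin-inactivating enzyme, spread widely, at 17.3, 99.1 and 2.48 FPKM in pkg and 32.7, 57.6 and 43.0 FPKM in wild type. BRI1, the brassinosteroid receptor, was at 56.8, 28.2 and 30.7 FPKM in pkg and at 61.6, 55.2 and 61.8 FPKM in wild type (difference -0.68 ± 0.28, adjusted p = 0.463). BZIP46, a factor of abscisic acid signalling, was at 24.8, 9.04 and 8.55 FPKM in pkg and at 27.1, 34.1 and 35.6 FPKM in wild type (adjusted p = 0.409). The smallest adjusted p in any of these 4 lists was 0.409.

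Metal, heat and calcium genes held some of the smaller p-values. COPT4, of the copper transporter family, was at 25.9, 27.4 and 31.4 FPKM in pkg and at 14.5, 17.8 and 10.3 FPKM in wild type (difference 0.97 ± 0.20, adjusted p = 0.114), in a list where 17 of 30 were below wild type (median -0.21, and -0.03 without pkg Br-cGMP 3). HSP16.9A, a small heat shock protein gene, was at 6.94, 4.77 and 8.33 FPKM in pkg and at 1.31, 2.31 and 1.67 FPKM in wild type (difference 1.46 ± 0.32, adjusted p = 0.133), while 15 of 27 heat shock genes were below wild type (median -0.07). CPK23, a calcium-dependent protein kinase gene, was at 28.4, 23.5 and 11.8 FPKM in pkg and at 44.9, 37.2 and 34.6 FPKM in wild type (difference -0.92 ± 0.28, adjusted p = 0.338), in a list where 27 of 50 were below wild type (median -0.07). Each of these 3 genes missed the adjusted threshold. They were named for the smallest p in their lists, so the lack of overlap between their groups is no separate support.

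The other lists were read in the same way. Below wild type were 14 of 17 sugar genes (median -0.29), 6 of 9 photosynthesis and leaf genes (median -0.17), 11 of 20 root genes (median -0.51, and -0.02 without pkg Br-cGMP 3), 5 of 10 reactive oxygen enzymes (median -0.05), 4 of 11 potassium and sodium transport genes (median 0.15) and 5 of 12 phosphate and nitrate genes (median 0.18, but -0.19 without pkg Br-cGMP 2). Cytosolic ribosomal protein genes had 7 of 20 below wild type (median 0.09) and DNA replication, cell division and histone genes 10 of 33 (median 0.14). Both of these medians were below 0 without pkg Br-cGMP 1, at -0.12 and -0.22. In all, the medians of 11 of the 24 lists changed sign when 1 library was left out. Beside those already given, the ranges were -0.19 to 0.19 for abscisic acid, -0.18 to 0.04 for calcium, -0.10 to 0.05 for heat shock, -0.32 to 0.05 for leaf and -0.09 to 0.06 for reactive oxygen genes. The medians nearest 0 turned above 0 when libraries were rescaled to the same upper quartile, at 0.07 for abscisic acid, 0.03 for calcium, 0.06 for chitinases, 0.03 for heat shock and 0.06 for reactive oxygen genes.

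**Figure D5:**
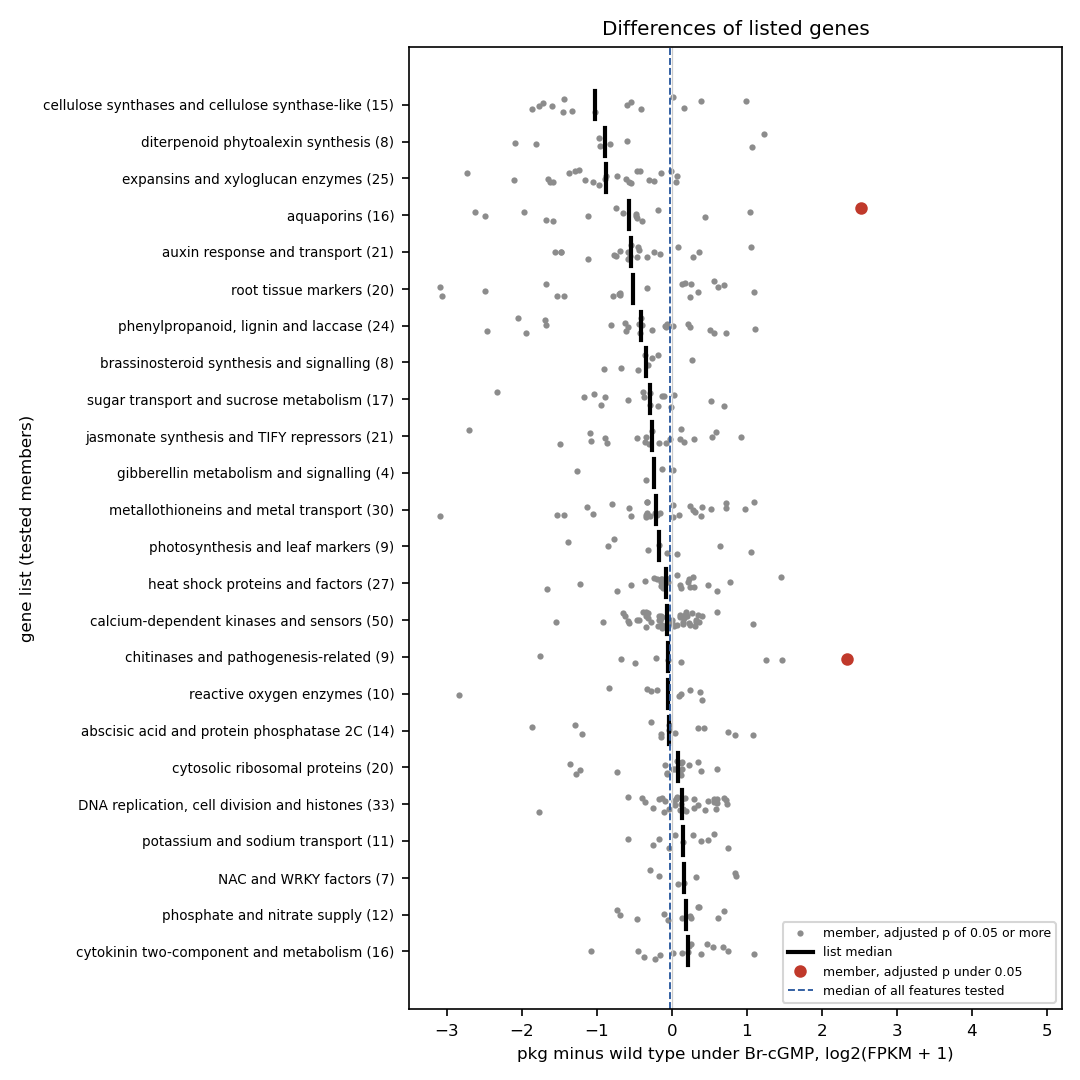
Difference between pkg and wild type under Br-cGMP for each tested member of the 24 gene lists, on the log2(FPKM + 1) scale, with list medians as black bars and the median of all features as a dashed line. The cellulose synthase list has the lowest median with all libraries, -1.02 (-0.33 without pkg 3, behind expansins at -0.46), and the only members past the threshold, in red, are TIP4-3 and CHT11.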

How the data were processed

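RNA-seq libraries came from 4 groups of 3, which the series design calls biological repetitions; groups and numbers were taken from the titles. The tools named in the submitters' processing notes are CASAVA 1.8 and HISAT2; no source used here names the build, annotation, counting program or strand setting. The authors deposited 1 value per feature and library with no stated unit, read here as FPKM from the values. In each library, value times length came out as whole reads times a constant, to within 0.01, for 100% of values, which gave back the reads.

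Values were joined on identifier with Python 3.11.15 and pandas 2.3.3, and plotted with matplotlib 3.10.9. Limma 3.58.1 in R 4.3.3 was fitted to log2(FPKM + 1) with group means over 12 libraries and trended and robust moderation. Features reaching 1 FPKM in 3 or more of the 6 treated libraries entered the fit. The procedure was tested on simulated data. Changes there were set only in well covered features, and none was made to lack reads altogether in a genotype. The simulation thus does not cover features without a read in a genotype. The p-values reflect variation among these libraries, which may be partly technical. Between libraries of a group, chi-square per degree of freedom was 62.94 to 73.63 in pkg Br-cGMP and 19.82 to 41.17 in wild type Br-cGMP, so none repeated another.

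The comparison, the 24 lists of symbols and the tests were chosen with earlier results of these data known. The text names PKG, SLR1, GID1 and GAMYB, the reference genes past the threshold, up to 4 members of each list and up to 4 other features in each direction with the smallest p, and genes past the interaction threshold; it draws on these where values matter most, and CSLE1, CSLF6, HXK1, PMEI8, MPK10, GLU2 and GER3 were named after their values were seen. Symbols come from the files, since 1 reference gene identifier of the files was found in the reference gene table (assembly ASM3414082v1). A planned search of promoters was not run. Other settings tried were 3 filters, another pseudocount, 2 rescalings, moderation with neither trend nor robust weights, fewer groups, a block on replicate number, limma-voom on the reads, a fit of reference genes only and fits lacking libraries.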

Additional observations from a re-analysis of the deposited data

Results flagged for a closer look

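The genotype difference of EPlOSAG00000003869 differed between treatments by the interaction test, by 4.82 on the log2(FPKM + 1) scale (limma, adjusted p = 0.00496). It was higher in pkg under Br-cGMP and lower in pkg untreated, and rests on at most 2 reads in any Br-cGMP library. The call was absent with limma-voom on recovered reads.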

How the results depend on the processing

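Of the 21 reference genes past the threshold, OS03G0299700, OS03G0344400, OS04G0510000 and OS03G0582900 kept their call under every alternative that could be run (23 or 24 a gene), 3 lost it under 1, 4 under 5 to 8 and 10 under 11 to 17, and none changed direction. With a filter at 5 FPKM, 43 features, 10 reference genes, 0 interactions and 48 untreated features were past the threshold. With the 6 Br-cGMP libraries alone, 44 features (34 shared with the fit of all libraries) and 8 reference genes (6 shared) were. In a fit of the reference genes only, 8 were under Br-cGMP, 12 untreated and 0 for the interaction, where fewer features were tested. Without the 3 libraries low in root genes (those numbered 3 of pkg Br-cGMP, pkg control and wild type control), 39 features, 8 reference genes, 0 interactions and 29 untreated features were. The interaction gave 2 features with a pseudocount of 0.1 and 0 with limma-voom on recovered reads. Leaving out 1 library gave 61 to 256 features, 8 to 140 reference genes, 1 to 3 interactions and 55 to 81 untreated features. The 256 and the 140 come from leaving out pkg Br-cGMP 1; reference genes numbered 8 without pkg Br-cGMP 3, 11, 10 and 10 without wild type Br-cGMP 1, 2 and 3, and 13 without pkg control 2. The lowest untreated count came without pkg control 3, and the interaction numbered 2 without wild type Br-cGMP 2 and 3 without pkg control 1. Same-numbered pkg and wild type libraries under Br-cGMP deviated together at r = -0.11, 0.18 and -0.17 across features. With 3 libraries a group, these values cannot exclude a batch shared by number. The root list sums were low in the library numbered 3 of pkg Br-cGMP and of both controls. A replicate block gave 87 features (73 shared) and 22 reference genes (14 shared). RIXI was past the threshold without pkg control 1 (difference -1.75).

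Directions that turned were all of genes far from the threshold. Leaving out 1 library, GID1 ranged from -0.14 to 0.24, NAC74 from -0.11 to 0.49, ILI3 from -2.04 to 0.049 and ILI6 from -0.80 to 0.070. Without the 3 libraries low in root genes GID1 was at -0.14, ILI3 at 0.049 and ILI6 at 0.070. The median of all features was -0.02, and 0.02 and 0.06 under the other scalings; the share of features higher in pkg among those past the threshold was 59.1%, 28.5% without pkg Br-cGMP 1 and 37.5% in the reference-only fit. The cause of these shifts was not tested. Depth limits short and weak features most: 8 of the 88 had at most 10 reads in any Br-cGMP library.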
